A study of Mus musculus with 12 samples.

Results

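The expression of 10 immediate early genes, *Fos*, *Fosb*, *Junb*, *Egr1*, *Egr2*, *Nr4a1*, *Nr4a2*, *Nr4a3*, *Atf3* and *Ier2*, was examined in whole mouse adrenals. The genes were chosen by their symbols, and all 10 were found among the 39017 genes of the deposited table. All 10 also passed the filter on low counts, which left 14953 genes for the tests. RNA came from adrenals cleaned of surrounding fat, with 6 control mice (Ctrl) and 6 βCat-GOF mice, all females of 10 to 11 weeks on a mixed sv129-C57Bl/6 background, with 1 library per mouse. The genotype labels give ASCre/+ for controls and ASCre/+ ::Ctnnb1fl(ex3)/+ for βCat-GOF mice. By these labels both groups carry the same Cre allele. The titles of the control samples read Wt_Ctr, however, and the study writes of wild type adrenals in this comparison. Whether the controls carry Cre is therefore not settled by the labels. Cre is expressed from the *Cyp11b2* (AS, aldosterone synthase) locus, which is active in cells of the zona glomerulosa (zG), the outer zone of the cortex. There, recombination of the floxed *Ctnnb1* allele deletes exon sequence and leaves a stabilized β-catenin in βCat-GOF mice. The study sequenced these glands to ask which transcripts accompany the altered shape of the zG in βCat-GOF adrenals.

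Immediate early genes are transcribed within minutes of a stimulus, without new protein synthesis, and their short-lived transcripts decay soon afterwards. They are switched on by transcription factors that already sit at their promoters, such as CREB at cyclic AMP response elements (CREs) and serum response factor at CArG boxes, once kinases activate them. In the adrenal cortex, ACTH (through cyclic AMP), angiotensin II and potassium (through calcium) are classical stimuli, and the stress of handling raises ACTH. The labels give no stimulus, time of day, handling or order of dissection for any mouse.

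The libraries held between 13484675 and 25625494 counts on genes, with Ctrl 6 and βCat-GOF 4 the shallowest at 14090378 and 13484675, and 3 counts corresponded to between 0.117 and 0.222 CPM (counts scaled to equal library totals). The RNA is that of the whole gland, and each of the 8 zG markers, 4 markers of the zona fasciculata (zF) and 9 markers of the medulla fixed for this work was detected. The labels of Ctrl 1 and Ctrl 2, of Ctrl 3 and Ctrl 4, and of βCat-GOF 1 and βCat-GOF 2 share a stem. Within these 3 pairs the chi-square of the counts was 39.2 to 42.8 per degree of freedom, against 15.8 to 136 in the 27 other pairs within a group, so none of them is a library deposited again. The labels do not say whether a shared stem means a shared animal, and all 12 libraries were counted as separate mice. The p-values measure the spread between these libraries. The labels of the 6 controls and of 5 βCat-GOF mice begin with 1 number for each group, while βCat-GOF 5 has a number of its own. A litter or batch that follows this number holds mice of a single group, and it cannot be told apart from the genotype.

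The promoters of *Fos*, *Fosb* and the 3 *Nr4a* genes are shown because *Fos* and *Fosb* had the highest dispersion of the 10 genes in the edgeR fit and the *Nr4a* genes hold the most copies of the CRE core. Each stretch covers bases upstream of a transcription start in RefSeq (GRCm38.p6, the assembly of mm10), written 5′ to 3′ on the strand of the gene. It runs over up to 250 bases and ends before the nearest annotated exon. Capitals mark the CRE core, TGACG or its reverse complement CGTCA.
*Fos*, chr12:85473640-85473889, strand plus: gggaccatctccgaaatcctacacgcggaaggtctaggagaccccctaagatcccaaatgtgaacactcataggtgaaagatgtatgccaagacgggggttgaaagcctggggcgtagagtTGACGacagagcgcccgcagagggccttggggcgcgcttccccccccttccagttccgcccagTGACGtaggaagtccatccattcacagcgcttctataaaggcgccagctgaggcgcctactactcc
*Fosb*, chr7:19310052-19310295, strand minus: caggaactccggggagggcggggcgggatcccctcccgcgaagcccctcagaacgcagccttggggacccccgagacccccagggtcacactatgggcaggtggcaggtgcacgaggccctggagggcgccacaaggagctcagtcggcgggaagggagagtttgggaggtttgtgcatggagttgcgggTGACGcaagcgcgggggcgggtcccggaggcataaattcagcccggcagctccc
*Nr4a1*, chr15:101266596-101266845, strand plus: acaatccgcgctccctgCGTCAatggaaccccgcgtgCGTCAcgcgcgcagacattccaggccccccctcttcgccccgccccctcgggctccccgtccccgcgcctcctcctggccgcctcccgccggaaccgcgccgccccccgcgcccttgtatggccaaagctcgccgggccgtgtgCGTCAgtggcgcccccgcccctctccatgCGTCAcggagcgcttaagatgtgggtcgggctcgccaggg
*Nr4a2*, chr2:57124004-57124253, strand minus: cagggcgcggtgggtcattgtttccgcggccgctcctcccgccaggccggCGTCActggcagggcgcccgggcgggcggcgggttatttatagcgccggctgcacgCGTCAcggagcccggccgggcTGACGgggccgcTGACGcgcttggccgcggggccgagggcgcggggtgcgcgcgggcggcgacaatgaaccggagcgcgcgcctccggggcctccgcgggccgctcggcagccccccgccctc
*Nr4a3*, chr4:48045055-48045152, strand plus: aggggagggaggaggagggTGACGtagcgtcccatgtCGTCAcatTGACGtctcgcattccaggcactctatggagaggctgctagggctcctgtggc

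RefSeq promoters matched 8 of the 10 genes, with *Egr1* and *Ier2* unmatched. Over the full 250 bases upstream of a start, the CRE core TGACG, searched on both strands, was found in 8 of these 8 genes and in 17.8% of the 32851 mouse promoters of the same length. At least 2 copies were found in 5 of the 8 genes (*Fos*, *Egr2* and the 3 *Nr4a* genes) and in 3.90% of all promoters. *Nr4a1*, *Nr4a2* and *Nr4a3*, which encode related orphan nuclear receptors, had 4 copies each, and 0.137% of all promoters have 4 or more. In *Nr4a3* the fourth copy lies in the part after position 48045152 that is not printed. The copies in *Fos* started 129 and 66 bases before its start site. The copy in *Fosb* started 60 bases upstream and the copy in *Junb* 106 bases upstream. The full palindrome TGACGTCA, which contains the core on both strands, was found in 0 of the 8 genes and in 1.55% of all promoters. The EGR site GCGGGGGCG, searched on both strands, was found in *Fosb* and *Nr4a1* and in 2.57% of all promoters. The NR4A site AAAGGTCA, searched on both strands, was found in 0 of the 8 genes and in 1.34% of promoters. A CArG box was found in *Egr2* and in 1.47% of promoters. *Egr2* has several start sites in RefSeq, and the count of its start with the most copies was taken. These matches describe letters in a window and were not measured as binding. Sites outside this window, and any in *Egr1* and *Ier2*, were not searched.

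Levels of the 10 genes differed widely. They are compared here as the median CPM over the 12 mice per kilobase of exon. *Nr4a1*, the nuclear receptor also called NGFI-B or Nur77, had the highest level at 90.3 CPM per kilobase. Its median CPM of 317 exceeded that of 97.6% of all genes tested. *Junb* (17.4 CPM per kilobase), *Ier2* (12.3), *Nr4a3* (9.78) and *Egr1* (9.12) followed. *Nr4a2* (3.28 CPM per kilobase), *Fos* (2.64) and *Atf3* (1.43) were lower, and *Fosb* (0.269) and *Egr2* (0.263) were lowest. *Nr4a1* was above *Junb* in 11 of the 12 mice, and *Egr1* above *Nr4a2* and *Fos* above *Atf3* in 10 mice each. Neighbours in the middle of the order changed places between mice, and *Ier2* was above *Nr4a3* in only 8 mice and *Nr4a3* above *Egr1* in only 7. *Fosb* was above *Egr2* in 8 mice.

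**Figure D1:**
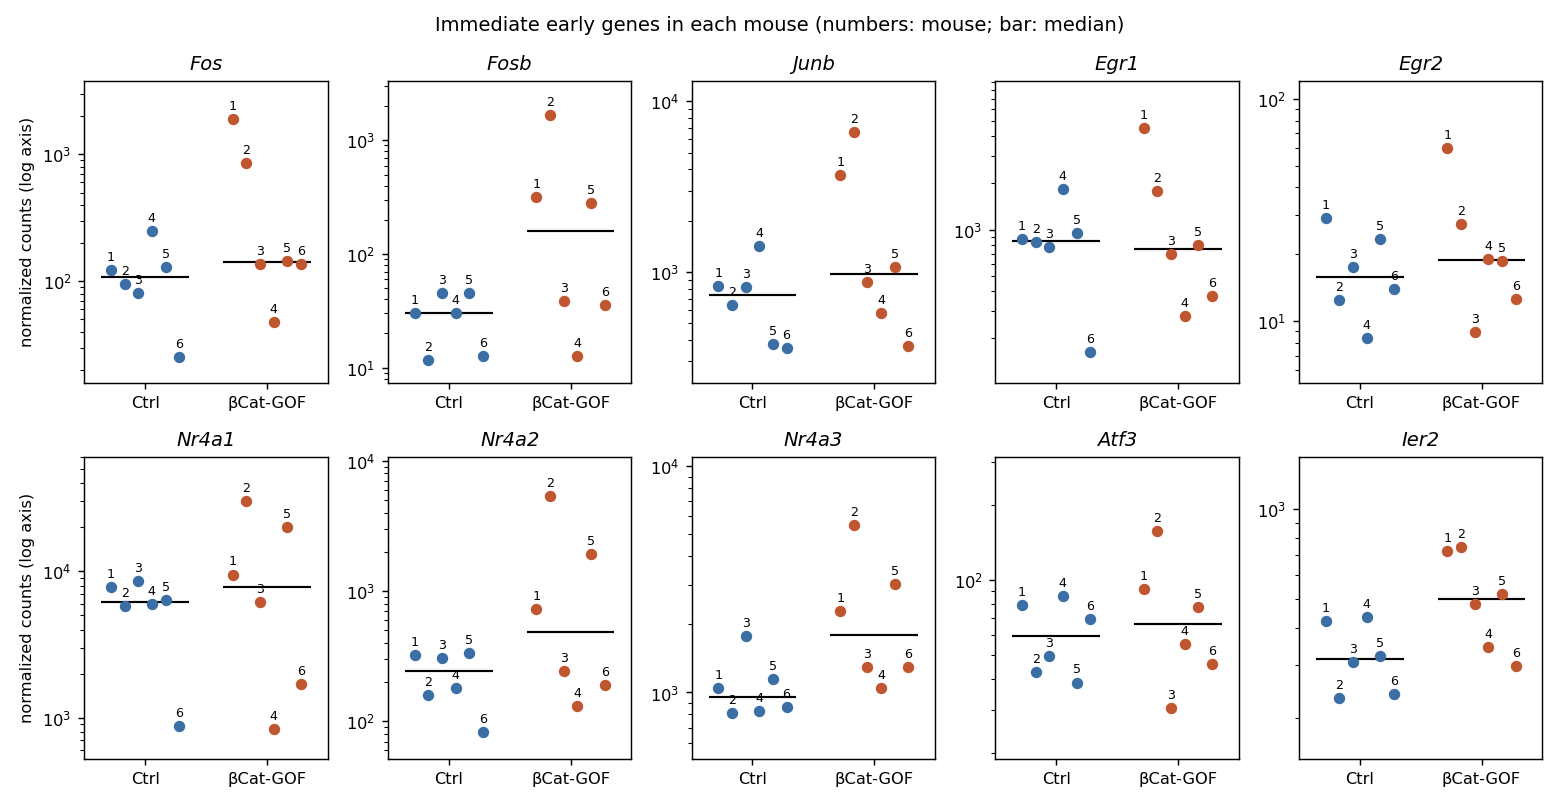
Normalized counts (log axis) of each of the 10 genes in each of the 6 Ctrl (blue) and 6 βCat-GOF (orange) mice, with the number of the mouse above its point and a bar at the group median. βCat-GOF 1 and βCat-GOF 2 lie among the highest 3 mice for all 10 genes, and the groups overlap for each gene.

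*Fos*, on chromosome 12 from 85473890 to 85477273 (GRCm38), encodes a leucine zipper protein that pairs with Jun proteins to form the AP-1 transcription factor. Its normalized counts, the counts divided by the size factor of each library, were between 25.1 (Ctrl 6) and 250 (Ctrl 4) in controls, with a median of 109. In βCat-GOF adrenals they were between 47.4 (βCat-GOF 4) and 1891 (βCat-GOF 1), with a median of 141. Only βCat-GOF 1 and βCat-GOF 2 (853) lay above every control, while the other 4 βCat-GOF mice, at 47.4 to 145, lay within the control range. The means were 117 ± 74.9 and 535 ± 727 normalized counts (SD, n = 6 mice per group), and the log2 fold change from edgeR's quasi-likelihood test was 2.21 ± 0.79 (SE), with an adjusted p of 0.145. The exact permutation test over all splits of the mice into 6 and 6 gave p = 0.188 (two-sided). This test compared the group means of log2 normalized counts, not the means given above. The exact permutation p of the other genes was obtained in the same way. Without βCat-GOF 1 the log2 fold change was 1.18 (edgeR adjusted p = 0.277).

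*Fosb*, on chromosome 7 from 19302696 to 19310051, encodes a second Fos family member whose truncated form is known to accumulate under repeated stimulation. Control mice had 11.7 (Ctrl 2) to 44.96 (Ctrl 3) normalized counts, with a median of 30.2, and βCat-GOF mice 12.7 (βCat-GOF 4) to 1660.4 (βCat-GOF 2), with a median of 159. βCat-GOF 1 (320.0), βCat-GOF 2 and βCat-GOF 5 (280.0) were above every control, and the other 3 βCat-GOF mice, at 12.7 to 38.5, were within the control range. *Fosb* had the largest fold change of the 10 genes, from 29.1 ± 14.7 to 391 ± 636 normalized counts, with a log2 fold change of 3.73 ± 0.98 (SE, edgeR adjusted p = 0.0515, exact permutation p = 0.0823). This adjusted p lies just outside the threshold of 0.05. Without βCat-GOF 2 the log2 fold change was 2.25 (edgeR, adjusted p = 0.107), and without βCat-GOF 1, 3, 4 or 6 in turn the adjusted p was between 0.0327 and 0.0463.

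*Junb*, on chromosome 8 from 84974484 to 84978718, encodes an AP-1 partner of the Fos proteins. Normalized counts were 358 (Ctrl 6) to 1421 (Ctrl 4) in controls, with a median of 732, and 367 (βCat-GOF 6) to 6566 (βCat-GOF 2) in βCat-GOF adrenals, with a median of 974. As for *Fos*, βCat-GOF 1 (3696) and βCat-GOF 2 were the only mice above the control range. The log2 fold change was 1.57 ± 0.63 (SE, edgeR adjusted p = 0.184), and the exact permutation p was 0.227. Without βCat-GOF 2 the log2 fold change was 0.85 (edgeR adjusted p = 0.384). Exons of other genes overlap 7.52% of the exons of *Junb*, and the strand setting of the counting is not given in the sources used here.

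*Nr4a1*, on chromosome 15 from 101254269 to 101274795, and its relatives *Nr4a2* (Nurr1, chromosome 2 from 57106830 to 57124003) and *Nr4a3* (NOR1, chromosome 4 from 48045153 to 48086447) encode orphan nuclear receptors that are induced by ACTH and angiotensin II in adrenocortical cells and can act on steroidogenic promoters. *Nr4a1* had 876 (Ctrl 6) to 8642 (Ctrl 3) normalized counts in controls, with a median of 6191, and 838 (βCat-GOF 4) to 30323 (βCat-GOF 2) in βCat-GOF adrenals, with a median of 7864. βCat-GOF 2 and βCat-GOF 5 (20233) were far above every control and βCat-GOF 1 (9515) slightly above, whereas βCat-GOF 4, βCat-GOF 6 (1703) and Ctrl 6 stood well below all other mice. The log2 fold change of *Nr4a1* was 0.95 ± 0.71 (SE, edgeR adjusted p = 0.480), with an exact permutation p of 0.738. Without βCat-GOF 2 it was 0.38 (edgeR adjusted p = 0.792).

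*Nr4a2* had 82.4 (Ctrl 6) to 337 (Ctrl 5) normalized counts in controls, with a median of 243, and 131 (βCat-GOF 4) to 5357 (βCat-GOF 2) in βCat-GOF adrenals, with a median of 487. βCat-GOF 1 (729), βCat-GOF 2 and βCat-GOF 5 (1937) were above every control. The log2 fold change was 2.62 ± 0.81 (SE, edgeR adjusted p = 0.0915, exact permutation p = 0.141), the second largest of the 10 genes. Without βCat-GOF 2 it was 1.49 (edgeR adjusted p = 0.194). *Nr4a3* had 814 (Ctrl 2) to 1768 (Ctrl 3) normalized counts in controls, with a median of 955, and 1049 (βCat-GOF 4) to 5509 (βCat-GOF 2) in βCat-GOF adrenals, with a median of 1792. All 6 βCat-GOF mice exceeded the control median, and the same 3 mice, βCat-GOF 1 (2286), βCat-GOF 2 and βCat-GOF 5 (3016), exceeded every control. Its log2 fold change was 1.15 ± 0.37 (SE, edgeR adjusted p = 0.104), with an exact permutation p of 0.0411 before any adjustment.

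*Egr1*, on chromosome 18 from 34859823 to 34864984, and *Egr2*, on chromosome 10 from 67535475 to 67542188, encode zinc finger transcription factors of the early growth response family. *Egr1* had 163 (Ctrl 6) to 1843 (Ctrl 4) normalized counts in controls, with a median of 849, and 278 (βCat-GOF 4) to 4558 (βCat-GOF 1) in βCat-GOF adrenals, with a median of 749. It was the only member whose median was lower in βCat-GOF adrenals, and only βCat-GOF 1 exceeded the highest control. The log2 fold change of *Egr1* was 0.66 ± 0.64 (SE, edgeR adjusted p = 0.604, exact permutation p = 0.768), and without βCat-GOF 1 it was -0.20. *Egr2* was barely expressed, with 8 to 78 counts per library before normalization. Its normalized counts were 8.40 (Ctrl 4) to 29.0 (Ctrl 1) in controls and 8.95 (βCat-GOF 3) to 60.3 (βCat-GOF 1) in βCat-GOF adrenals, and its log2 fold change was 0.51 ± 0.44 (SE, edgeR adjusted p = 0.558). Without βCat-GOF 1 the log2 fold change of *Egr2* was -0.025.

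*Atf3*, on chromosome 1 from 191170296 to 191218039, encodes a stress-induced factor of the ATF/CREB family. It had 38.6 (Ctrl 5) to 86.1 (Ctrl 4) normalized counts in controls, with a median of 59.7, and 30.4 (βCat-GOF 3) to 157 (βCat-GOF 2) in βCat-GOF adrenals, with a median of 66.6. Only βCat-GOF 1 (92.0) and βCat-GOF 2 were above the control range, and βCat-GOF 3 was below it. The log2 fold change was 0.33 ± 0.36 (SE, edgeR adjusted p = 0.645). *Ier2*, on chromosome 8 from 84661331 to 84662852, encodes a nuclear protein of the immediate early response. Controls had 233 (Ctrl 2) to 435 (Ctrl 4) normalized counts, with a median of 315, and βCat-GOF mice 297 (βCat-GOF 6) to 748 (βCat-GOF 2), with a median of 500. With βCat-GOF 1 (726), 2, 3 (481) and 5 (519.5) above every control, *Ier2* had the most βCat-GOF mice above the control range. The log2 fold change of *Ier2* was 0.67 ± 0.24 (SE, edgeR adjusted p = 0.145, exact permutation p = 0.0455).

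Across the group comparison, 0 of the 10 genes passed in edgeR at the cut-offs taken over from the study (base mean above 100, fold above 1.4, adjusted p under 0.05), which 1.48% of all genes tested passed as higher and 0.869% as lower in βCat-GOF adrenals. At an unadjusted p under 0.05, 6 of the 10 genes (*Fos*, *Fosb*, *Junb*, *Nr4a2*, *Nr4a3* and *Ier2*) were higher and 0 lower, against 9.73% and 10.7% of all genes tested. All 10 log2 fold changes were positive with a median of 1.05, while the median over all genes was 0.000105. Medians were higher in βCat-GOF adrenals for 9 of the 10 genes. For each of the 10 genes the values of the groups overlapped. The share of all genes tested with such an overlap was not counted, so this describes the 10 genes alone. With DESeq2, the tool of the study, 2 of the 10 genes (*Fosb* and *Nr4a2*) passed the same cut-offs as higher, against 2.14% of the 16901 genes it tested.

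**Figure D2:**
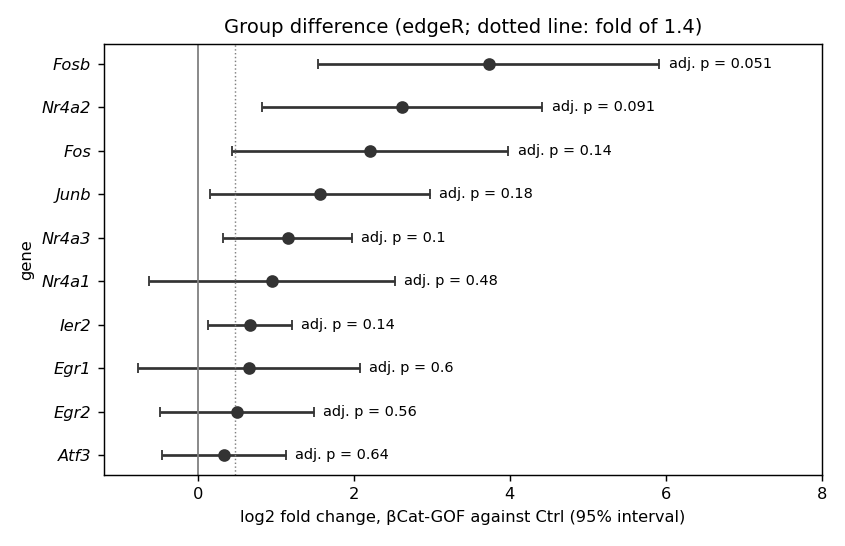
Log2 fold change of each gene in βCat-GOF against Ctrl adrenals from edgeR's quasi-likelihood test (point) with its 95% interval (bar) and adjusted p, with a dotted line at a fold of 1.4. All 10 points are above 0, and the intervals of *Nr4a1*, *Egr1*, *Egr2* and *Atf3* reach below it.

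The highest values came from few mice. βCat-GOF 2 had the highest value of all 12 mice for 7 of the 10 genes and βCat-GOF 1 for the other 3 (*Fos*, *Egr1* and *Egr2*). Both were among the highest 3 mice for 10 of 10 genes, as they were for 12.3% of all genes tested. βCat-GOF 1, 2 and 5 formed the highest 3 for 5 genes (*Fosb*, *Ier2* and the 3 *Nr4a* genes), against 2.72% of all genes. βCat-GOF 5 showed an uneven profile, with *Fosb* and *Nr4a2* at 9.62 and 8.39 times the control mean but *Fos* at 1.24 times and *Egr1* at 0.883 times. βCat-GOF 1 had *Fos* at 16.2 and *Fosb* at 11.0 times the control mean, *Egr1* at 5.04 and *Nr4a2* at 3.16 times, and *Nr4a1* at 1.61 times. At the low end, Ctrl 6 was the lowest control for 5 of the 10 genes, against 10.1% of all genes, and βCat-GOF 4 the lowest βCat-GOF mouse for 6, against 23.2%. These are also the shallowest libraries of their groups, and without both of them the number of the 10 genes past the cut-offs was again 0.

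**Figure D3:**
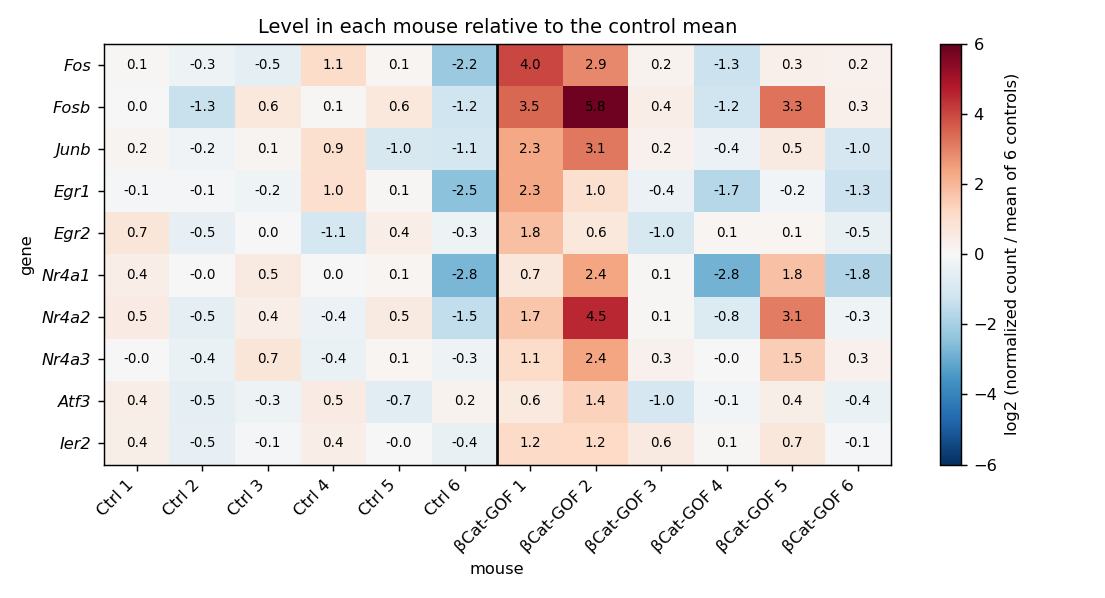
Level of each gene (rows) in each mouse (columns) as the log2 of its normalized count over the mean of the 6 controls, with the value in each cell. Red cells gather in βCat-GOF 1, 2 and 5, and the deepest blue cells are *Nr4a1* in Ctrl 6 and βCat-GOF 4 and *Egr1* in Ctrl 6.

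The spread between mice of a group was large. The coefficient of variation (CV) of normalized counts in controls was between 26.5% (*Ier2*) and 64.0% (*Fos*), with a median of 45.6% over the 10 genes, against a median of 14.3% over all genes tested. In βCat-GOF adrenals it was between 36.05% (*Ier2*) and 163% (*Fosb*), with a median of 107%, against 19.6% over all genes. The CV was larger in βCat-GOF than in Ctrl adrenals for 10 of the 10 genes, as for 70.6% of all genes. In controls alone, the highest mouse exceeded the lowest by 11.3 times for *Egr1*, 9.94 times for *Fos* and 9.87 times for *Nr4a1*, where the median over all genes was 1.46 times. The lowest value of all 3 was that of Ctrl 6. In βCat-GOF adrenals the same ratio reached 131 for *Fosb*, 40.8 for *Nr4a2*, 39.8 for *Fos* and 36.2 for *Nr4a1*. The dispersion of the edgeR fit, which measures the variance between mice beyond counting noise, had a median of 0.525 over the 10 genes and 0.0353 over all genes. For 9 of the 10 genes it was above the 90th percentile of all genes tested, with *Fosb* at 99.7 and *Fos* at 99.5, and *Ier2* was the exception at 78.6.

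**Figure D4:**
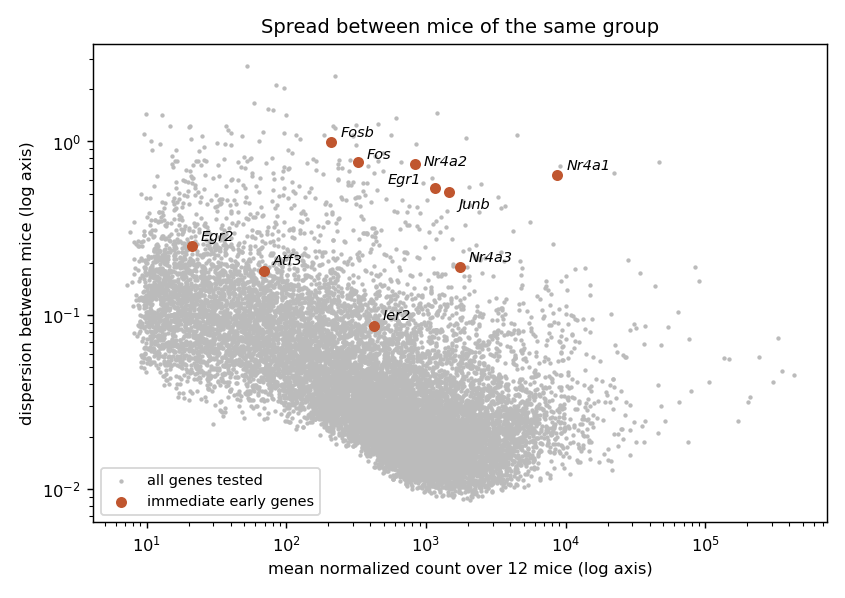
Dispersion between mice of the same group (log axis) against the mean normalized count over 12 mice (log axis) for all 14953 genes tested (grey) and the 10 immediate early genes (orange). At their mean counts, *Fosb*, *Fos*, *Nr4a2*, *Nr4a1*, *Egr1* and *Junb* lie along the upper edge of the cloud, while *Ier2* lies nearer to it.

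To see whether the genes rose and fell in the same mice apart from the group difference, log2 CPM was expressed as the deviation from the group mean and *Fos* was correlated over the 12 mice with each of the 14952 other genes, with 100000 permutations within groups. At an adjusted p under 0.05, 0 of the 9 other members and 0.0% of all genes were positively correlated. The smallest p these permutations can give is 1e-05, an adjusted p of 0.150 for a single gene, so at least 3 genes at this p would be needed to pass. At an unadjusted p under 0.05, 5 of the 9 members were positively correlated, against 7.94% of all genes. The median Pearson's r with *Fos* was 0.69 over the 9 members and 0.091 over all genes. *Egr1* followed *Fos* most closely, with r = 0.96 (permutation p = 3e-05, adjusted 0.281) and Spearman's rho = 0.98 (permutation p = 4e-05, adjusted 0.239). Its r was 0.98 within Ctrl and 0.96 within βCat-GOF adrenals, and 0.92 without βCat-GOF 1 and βCat-GOF 4, the mice whose *Fos* was farthest from the median. *Junb* had r = 0.83 (permutation p = 0.00667, adjusted 0.281) and rho = 0.83 (permutation p = 0.00575, adjusted 0.308), and r = 0.81 without these mice. *Ier2* had r = 0.82 (permutation p = 0.00564, adjusted 0.281) and rho = 0.80 (permutation p = 0.00794, adjusted 0.308), and r = 0.76 without them. For *Fosb*, r was 0.74 (permutation p = 0.0255, adjusted 0.284), and rho was 0.77 (permutation p = 0.00855, adjusted 0.308). For *Nr4a1* both r and rho were 0.69 (permutation p = 0.0402 and 0.0339, adjusted 0.302 and 0.316). Without βCat-GOF 1 and βCat-GOF 4, r was 0.70 for *Fosb* and 0.71 for *Nr4a1*. *Nr4a2*, *Egr2*, *Atf3* and *Nr4a3* had r between 0.53 and 0.61 with unadjusted permutation p between 0.104 and 0.162. Within Ctrl adrenals alone, r was 0.60 for *Nr4a2*, -0.11 for *Egr2*, 0.10 for *Atf3* and -0.028 for *Nr4a3*. Within βCat-GOF adrenals it was 0.62, 0.79, 0.68 and 0.67 for these genes. For the 5 members named before them, r was 0.53 (*Fosb*) to 0.98 (*Egr1*) within Ctrl and 0.65 (*Nr4a1*) to 0.96 (*Egr1*) within βCat-GOF adrenals.

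Among all 45 pairs of the 10 genes, r over the 12 mice was between 0.33 (*Egr2* with *Nr4a1*) and 0.96, with a median of 0.69. *Fosb* was closest to *Nr4a2* (r = 0.95) and *Nr4a3* (r = 0.94), and *Nr4a2* and *Nr4a3* had r = 0.94. *Fos* with *Egr1* formed a tight pair, and *Fosb* with the *Nr4a* genes a tight group, while *Fos* and *Nr4a3* had r = 0.53. These values describe 12 libraries and were given no test. Outside the lists fixed for this work, the 10 genes most like the mean deviation of the members were *Zmat1* (r = 0.94), *Irs2* (0.93), *Cfap126* (0.93), *Gm15635* (0.93), *Ptgs2* (0.92), *Catsper2* (0.92), *Dnah7b* (0.91), *Gm14418* (0.91), *H2-Q5* (0.91) and *Skil* (0.90), each over 12 mice. *Ptgs2*, which encodes the inducible cyclooxygenase, had a log2 fold change of 2.42 (adjusted p = 0.0498 from edgeR) at a base mean of 94.6, below the limit of 100. *Irs2*, which encodes an insulin receptor substrate, had 0.22 (adjusted p = 0.725).

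Of 34 other immediate early genes, 30 passed the filter on low counts, and *Fosl1*, *Egr3*, *Egr4* and *Npas4* did not. By the cut-offs, βCat-GOF adrenals had 2 genes of this list higher and 0 lower, against 1.48% and 0.869% of all genes tested. At an unadjusted p under 0.05, 11 were higher and 1 lower, against 9.73% and 10.7% of all genes. Log2 fold changes were positive for 25 of the 30, with a median of 0.34. *Crem*, which encodes cyclic AMP response modulators including the inducible repressor ICER, rose from 804 ± 101 to 2932 ± 1335 normalized counts (SD, 6 mice each), with a log2 fold change of 1.85 ± 0.33 (SE, edgeR adjusted p = 0.00701). In βCat-GOF 1, however, *Crem* was at 585, below every control (708 to 999), while the other βCat-GOF mice had 2258 to 4109. *Btg1*, which encodes an antiproliferative factor, rose from 1136 ± 163 to 1861 ± 445 (edgeR log2 fold change 0.71 ± 0.15 SE, adjusted p = 0.0188). *Crem* did not share the pattern of the mice, with r = -0.23 against the mean deviation of the 10 members, while *Btg1* had r = 0.85. *Maff*, a small Maf factor, had a log2 fold change of 1.57 (adjusted p = 0.0156 from edgeR) at a base mean of 76.6, below the limit, and r = -0.34. *Gadd45b* (1.66, adjusted p = 0.106 from edgeR) and *Klf4* (1.65, adjusted p = 0.0925) had large log2 fold changes that did not pass. *Csrnp1* (r = 0.98), *Sik1* (r = 0.90) and *Klf4* (r = 0.89) were nearest to the 10 members in pattern. Among these 30 genes, βCat-GOF 1 and βCat-GOF 2 were both among the highest 3 mice for 15, against 12.3% of all genes tested.

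Of 14 MAP kinase phosphatases and sprouty proteins, which limit the signal that induces these genes, 1 was higher and 0 lower by the cut-offs, against 1.48% and 0.869% of all genes tested. *Dusp14* rose from 119 ± 7.77 to 224 ± 45.5 normalized counts (edgeR log2 fold change 0.90 ± 0.14 SE, adjusted p = 0.00377). *Dusp1*, itself an immediate early phosphatase, had a log2 fold change of 1.03 (adjusted p = 0.0915 from edgeR). Of 28 kinases and transcription factors upstream, 0 passed the cut-offs in edgeR. At an unadjusted p under 0.05, 2 were higher and 2 lower, against 9.73% and 10.7% of all genes tested. The median log2 fold change of this list was 0.070. *Nab2*, a corepressor of EGR proteins, had the largest log2 fold change there, 0.46 (adjusted p = 0.144).

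The receptors and effectors of ACTH and angiotensin II formed a list of 16 genes. By the cut-offs, which 1.48% of all genes tested passed as higher and 0.869% as lower, 3 were higher and 0 lower. These were the angiotensin II receptors *Agtr1b* (log2 fold change 1.55, adjusted p = 0.00413 from edgeR) and *Agtr1a* (0.89, adjusted p = 0.00581 from edgeR) and *Mrap*, which encodes the accessory protein of the ACTH receptor (1.03, adjusted p = 0.0433 from edgeR). Without βCat-GOF 1 the count of this list was 7, and without any other single mouse it was 2. The share of all genes called without βCat-GOF 1 is not given here. *Cyp11b2*, which encodes aldosterone synthase, had a log2 fold change of -0.18 (adjusted p = 0.820 from edgeR), and r = 0.81 with the mean deviation of the 10 members. *Cyp11b1*, the 11β-hydroxylase of the zF, had a log2 fold change of -0.18 (adjusted p = 0.669) and r = -0.91.

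Of 13 heat shock and unfolded protein genes, 0 passed the cut-offs in edgeR, and DESeq2 called 5 (it called 2.14% of all genes it tested as higher). At an unadjusted p under 0.05, 9 were higher and 0 lower, against 9.73% and 10.7% of all genes tested. The median log2 fold change of the 13 genes was 0.57, and *Hspa1b* had the largest, 2.03 (adjusted p = 0.0865 from edgeR). Without βCat-GOF 1, edgeR called 5 of these genes, but the share of all genes called without this mouse is not given here. Of 10 glucocorticoid response genes 0 passed in edgeR, with 2 higher and 0 lower at an unadjusted p under 0.05, and DESeq2 called 1. Of 15 circadian clock genes 0 passed in edgeR, with 2 higher and 0 lower at an unadjusted p under 0.05. For both lists the shares of all genes tested at that p were again 9.73% higher and 10.7% lower. The clock genes summed to 1432 CPM in βCat-GOF 1 and 1635 CPM in βCat-GOF 2, to between 863 and 933 CPM in the other 4 βCat-GOF mice, and to between 1139 and 1248 CPM in controls. This sum joins genes that went in opposite directions in βCat-GOF 5. In normalized counts this mouse had the highest *Npas2* (219, next 28.3 in βCat-GOF 2). Its *Arntl* was also highest (797, with 703 in βCat-GOF 6 and 130 to 323 in controls). *Dbp* (1464), *Tef* (1495), *Per3* (338) and *Ciart* (12.8) were lowest in βCat-GOF 5. The cause was not tested. *Per1*, which encodes a clock protein and is also induced by cyclic AMP, had r = 0.81 with the mean deviation of the 10 members.

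**Figure D5:**
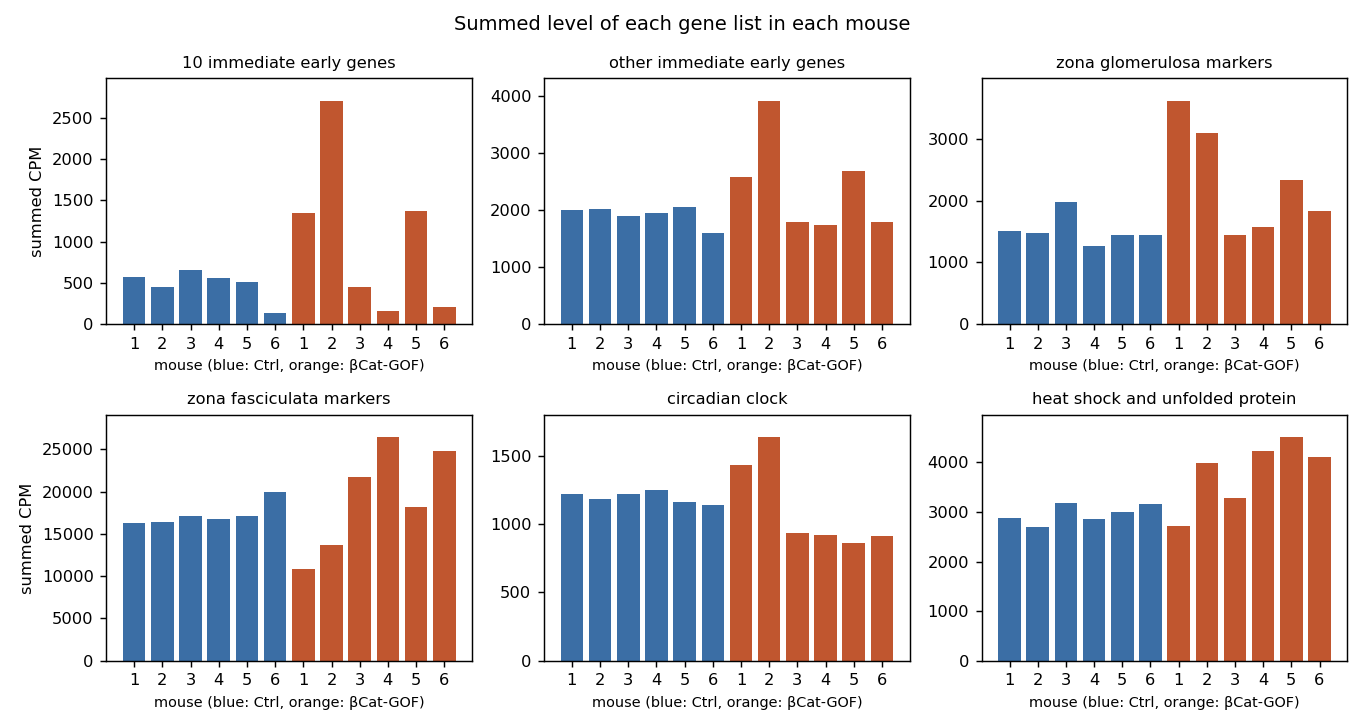
Summed CPM of each gene list in each mouse (bars from 0, Ctrl in blue, βCat-GOF in orange), for the 10 immediate early genes, other immediate early genes, zG markers, zF markers, circadian clock genes and heat shock genes. The 10 immediate early genes summed to 137 to 656 CPM in controls and to 1342, 2706 and 1373 CPM in βCat-GOF 1, 2 and 5, the mice in which the sums of the zG markers were also highest.

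In their sum, markers of the zG were highest in the same mice as the immediate early genes. The 8 zG markers summed to 3616 CPM in βCat-GOF 1, 3090.4 CPM in βCat-GOF 2 and 2333 CPM in βCat-GOF 5, and to between 1435 and 1831 CPM in the other βCat-GOF mice and 1259 and 1971 CPM in controls. Of these markers 3 were higher by the cut-offs (*Agtr1b*, *Vsnl1* and *Dab2*) and 0 lower, against 1.48% and 0.869% of all genes tested. For 5 of the 8, βCat-GOF 1, 2 and 5 were the highest 3 mice, against 2.72% of all genes. This did not hold for *Agtr1b*, *Cyp11b2* and *Hsd3b6*. In normalized counts, *Cyp11b2* was 3192 in βCat-GOF 5 against 2987 to 8035 in controls. *Hsd3b6* was 881 in βCat-GOF 1 and 1465 in βCat-GOF 2 against 734 to 2495 in controls, and 5140 in βCat-GOF 5. The 4 zF markers had their lowest sums in βCat-GOF 1 (10822 CPM) and βCat-GOF 2 (13717 CPM), against 16290 to 19919 CPM in controls and up to 26411 CPM in βCat-GOF 4, where the immediate early genes were low. Most of this sum was *Cyp11b1*, with 144025 (βCat-GOF 1) and 168621 (βCat-GOF 2) normalized counts against 232845 to 299379 in controls. In βCat-GOF 1 *Akr1b7* and *Abcb1b* were also below every control, but *Mc2r* (11582) was above every control (8255 to 10146). In βCat-GOF 2 *Akr1b7* (56370) was above every control (32372 to 52148), and *Mc2r* and *Abcb1b* were within the control range. Among the 4 zF markers *Akr1b7* was higher by the cut-offs (log2 fold change 1.48, adjusted p = 0.0458 from edgeR), a call that was lost when any control was left out. In whole glands, more cells of a zone and more RNA per cell cannot be told apart. The part of the zone markers in the values of the immediate early genes was not tested.

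Of 9 medulla markers 0 passed in edgeR, with 0 higher and 2 lower at an unadjusted p under 0.05, against 9.73% and 10.7% of all genes tested. The sums of the medulla markers were between 3977 and 12626 CPM in controls and 4904 and 9226 CPM in βCat-GOF adrenals. Of 8 capsule and fibroblast markers 0 passed, with 1 higher at an unadjusted p under 0.05 (9.73% of all genes tested were). Of 8 endothelial markers 0 passed in edgeR, with 3 lower at an unadjusted p under 0.05 (10.7% of all genes tested were), and DESeq2 called 1. The share of all genes that DESeq2 called lower is not given here. Of 9 macrophage markers *Adgre1* was lower by the cut-offs (log2 fold change -0.78, adjusted p = 0.0459 from edgeR) and 6 were lower at an unadjusted p under 0.05, against the same 10.7% of all genes. The median log2 fold change of the 9 was -0.39. The call of *Adgre1* was lost without Ctrl 1, 3, 4, 5 or 6, without βCat-GOF 2, 3 or 6 and with library totals alone. The sums of the macrophage markers were 492 to 901 CPM in controls and 390.2 to 617 CPM in βCat-GOF adrenals, lowest in βCat-GOF 2. Of 7 adipocyte markers tested 0 passed, with 1 higher at an unadjusted p under 0.05 (9.73% of all genes tested were), and of 5 blood cell markers 0 passed at either threshold. DESeq2 also called 0 genes of the upstream, clock, medulla, capsule, adipocyte and blood lists. No marker of these lists was at 0 in all mice, and the part of these cells in the values of the immediate early genes was not tested.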

How the data were processed

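RNA-seq of 12 whole adrenals (6 Ctrl, 6 βCat-GOF) was used. The authors aligned reads to mm10 with STAR, used featureCounts 1.4.4 for uniquely mapping reads and deposited raw counts, from which every test was made. The annotation release and strand setting are not given in the sources used here. The authors also deposited a normalized signal, the counts divided by a DESeq2 1.6.3 factor per library, used here only for gene symbols and to check these factors. No column was left unmapped (0 columns).

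Genes were grouped by the genotype label and tested with edgeR 4.0.16 in R 4.3.3 (TMM, filterByExpr, quasi-likelihood test, two-sided, Benjamini-Hochberg adjustment). The SE of a log2 fold change is its absolute value divided by the square root of the test's F statistic. Normalized counts are counts over DESeq2 1.42.0 median-of-ratios size factors, and log2 CPM used a prior count of 2. The cut-offs (fold 1.4, adjusted p 0.05, base mean 100) are those of the study. Promoters came from RefSeq and gene models from GENCODE M21, both on GRCm38. No member had another gene matching at least 10% of its transcript at 95% identity. Plots were drawn with matplotlib 3.10.9 in Python 3.11.15.

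The 10 genes and the 15 other lists were chosen with earlier results of these data known. Named are the 10 genes, in each other list the genes past the cut-offs, at most 4 with the largest changes and at most 3 with the highest correlation with the members, and the 10 genes outside the lists most like them. The markers' sums and the order of single mice were described after values were seen. Alternatives were DESeq2, its size factors, library totals, no filter, no limit on fold or base mean, a prior count of 0.5, CPM in place of size factors, and leaving out mice. Leaving out the shallowest libraries, the unadjusted p and the log2 scale of the gaps between mice were added after seeing the data. Intervals cover these libraries only, and precision of low genes is limited by depth.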

Additional observations from a re-analysis of the deposited data

Results flagged for a closer look

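On the scale of normalized counts, in each group of 6 mice, the gap between the highest or lowest mouse and its nearest neighbour was compared with the whole range of the group, and a ratio above 0.625 (Dixon's 95% critical value) marks a mouse that stands apart. Of the 20 combinations of 10 genes and 2 groups, 6 did so. Chance gives about 1 in 20 where values are normally distributed, which counts with a long upper tail are not, and the genes share the same 12 libraries. On the log2 scale 2 combinations did so, both with Ctrl 6 the lowest control (*Nr4a1*, ratio 0.827, and *Egr1*, 0.639). In βCat-GOF adrenals, the highest mouse stood apart for *Fosb* (βCat-GOF 2, ratio 0.813), *Nr4a2* (βCat-GOF 2, 0.654), *Egr1* (βCat-GOF 1, 0.650) and *Egr2* (βCat-GOF 1, 0.643). On the log2 scale these 4 ratios were between 0.274 and 0.415. The labels of these mice share a stem. In controls, Ctrl 6 stood apart as the lowest for *Nr4a1* (ratio 0.636), with 876 normalized counts against 5817 to 8642 in the other 5 mice. Ctrl 3 stood apart as the highest for *Nr4a3* (0.646), with 1768 against 814 to 1152, and at 0.552 on the log2 scale. Without Ctrl 6 the CV of *Nr4a1* in controls was 17.9% in place of 45.8%.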

How the results depend on the processing

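No paired analysis was possible because the labels give no replicate number shared between the groups. Against 0 members past the cut-offs with edgeR, DESeq2 without shrinkage gave 2, DESeq2's size factors in edgeR 1, no filter on low counts 1, an unadjusted p under 0.05 gave 6, and leaving out each mouse in turn gave 0 to 1 (*Fosb*, without βCat-GOF 1, 3, 4 or 6). *Egr1* turned lower in βCat-GOF adrenals without the 3 mice whose label repeats a stem (log2 fold change -0.28) and without βCat-GOF 1 (-0.20), and *Egr2* without βCat-GOF 1 (-0.025). Leaving out each mouse in turn gave -0.20 to 0.99 for *Egr1* and -0.025 to 0.71 for *Egr2*. The other 8 members kept a positive log2 fold change under all 18 alternatives, with *Atf3* falling to 0.0032 and *Fos* to 1.08. Over the alternatives, the median CV of the members ranged from 39.7% to 50.6% (Ctrl) and from 93.3% to 114% (βCat-GOF). *Egr1* correlated with *Fos* at an adjusted p under 0.05 without Ctrl 1 or Ctrl 5, so that leaving out each mouse gave 0 to 1 members.

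For the other lists, DESeq2 gave 2 MAP kinase phosphatases and sproutys, 5 heat shock genes, 1 glucocorticoid response gene, 6 zG markers and 1 endothelial marker. DESeq2's size factors in edgeR and no filter each gave 1 heat shock gene. Library totals alone gave 1 of the other immediate early genes, 0 zF and 0 macrophage markers. Without the mice whose label repeats a stem, the counts were 5 for the ACTH and angiotensin II list, 3 for heat shock, 1 for medulla and 0 for macrophage markers. Without the shallowest libraries, 0 zF and 0 macrophage markers passed. With no limit on fold or base mean, 2 macrophage markers passed. Leaving out each mouse in turn gave 1 to 3 other immediate early genes (1 without Ctrl 6), 2 to 7 genes of the ACTH and angiotensin II list, 0 to 5 heat shock genes, 0 to 1 zF markers, 0 to 1 medulla markers, 0 to 2 macrophage markers and 0 to 1 adipocyte markers. The cause of these shifts was not tested. Shares of all genes called under these alternatives are not given here, except for genes DESeq2 called higher (2.14%).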
